A study of Drosophila melanogaster with 4 samples.

Results

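H3K4me3, the trimethylation of lysine 4 of histone H3, was mapped in S2-DRSC cells by chromatin immunoprecipitation and sequencing (ChIP-seq), and the peaks that lie beside the centromeres of 2L, 3L and 3R are described here. They numbered 351, which is 3.03% of the 11572 peaks in the authors' list and 7.95% of the 4416 peaks on these 3 arms. They were taken by position alone, in FlyBase release 5. On 2L they were the 181 peaks that start at or beyond 21000000, on 3L the 104 that start at or beyond 22000000, and on 3R the 66 that start below 1000000. The centromere lies past the high coordinates of 2L and 3L and before the low coordinates of 3R. The comparison is with the other 4065 peaks of the same arms, 1172 on 2L, 1266 on 3L and 1627 on 3R.

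S2-DRSC is a male Drosophila melanogaster line grown from late embryos. There were 2 H3K4me3 ChIP libraries and 2 input DNA libraries, from cells with no labelled treatment or change of genotype, crosslinked with 1.8% formaldehyde for 15 min, and no label tells whether replicates are separate cultures. The deposited list gives 1 start, 1 end and 1 score per peak and no value for any single library, so no spread between replicates and no test between conditions can be given. The authors' file does not say what kind of quantity the score is, and read depth is unknown, so scores and their ratios are given on the authors' own scale. The 95% intervals below are exact binomial or Poisson intervals that take peaks as independent of each other. Neighbouring peaks are not independent, so the intervals are too narrow.

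H3K4me3 sits mainly at the starts of transcribed genes, where it is laid down by the Set1 and Trithorax-type methyltransferases. Towards a centromere a fly chromosome arm passes from gene-rich euchromatin into heterochromatin, which is rich in transposons and other repeats and is bound by HP1 proteins. Genes are sparser there, and many of them are transcribed and depend on their heterochromatic surroundings. The tandem array of the replication-dependent histone genes also lies near the base of 2L.

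The 3 arms did not behave alike beside their centromeres, and no single shift of score described them. The peaks of 2L and 3L held more very weak peaks than the rest of their arms, those of 2L also held more strong ones, and those of 3R were close in score to the rest of 3R. On 2L the median score was 64.8 beside the centromere (95% interval 38.2 to 109), against 70.05 in the other peaks (66.0 to 74.8). On 3L it was 71.2 (40.2 to 93.6), against 74.2 (68.9 to 79.1). On 3R it was 102 (80.3 to 122), against 101 (93.6 to 105). On each arm the interval beside the centromere held the median of the other peaks. Without a run of 35 mostly wide peaks described further on, the 2L median was 43.6 (29.5 to 70.05). The pooled ratio of medians over the 3 arms was 0.966.

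The medians hide the change in the shape of the distribution. On 2L the lower quartile of score was 18.9 beside the centromere and 33.0 in the other peaks, and the upper quartile was 211 beside the centromere and 118 in the other peaks. The upper quartile was therefore 11.2 times the lower one beside the centromere of 2L, and 3.57 times in the rest of the arm. Without the run of wide peaks the quartiles beside the centromere of 2L were 16.6 and 153, the upper 9.20 times the lower. Scores on 2L beside the centromere were thus spread both lower and higher, the higher side less so without the run. On 3L the lower quartile was 18.2 beside the centromere and 34.1 elsewhere, while the upper quartiles were 127 and 137. Between these quartiles the spread of 3L widened at the weak end. At its top the direction depended on the percentile. The 90th was 189 beside the centromere and 198 elsewhere, and the 95th was 276 and 226. On 3R the quartiles were 44.0 and 155 beside the centromere and 39.95 and 149.9 in the other peaks. The 95th percentiles there were 268 and 229.

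**Figure D1:**
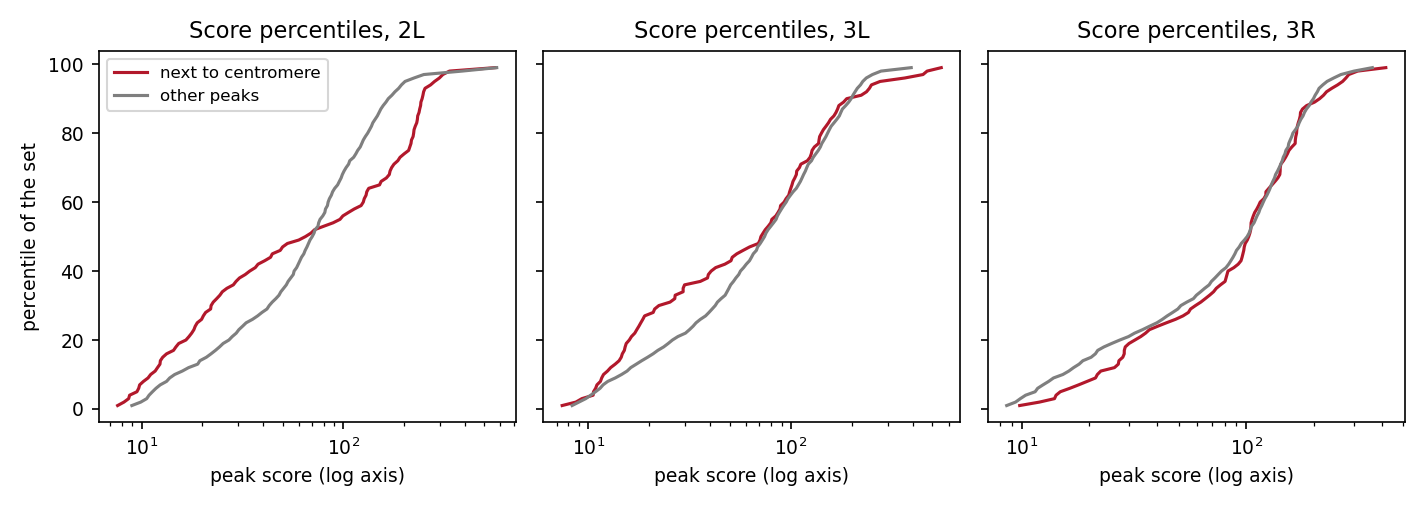
Percentiles of peak score (log axis, authors' scale) on 2L, 3L and 3R, in red for the peaks next to the centromere and in grey for the other peaks of the arm. On 2L, with the run of wide peaks included, the red line lies left of the grey one below the median and right of it over most of the upper part. The quartiles there are 18.9 and 211 against 33.0 and 118. At the 98th percentile of 2L the red line is left again (336 against 387). On 3L the red line lies left in the lower part and right at the 95th percentile (276 against 226). On 3R the lines run close together between the quartiles.

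The same was seen when each peak was placed by the quartiles of the whole list, 20.9 and 126. Of all peaks on the 3 arms, 16.2% fell at or below the lower one, here called weak. On 2L 51 of the 181 peaks beside the centromere were weak (28.2%, 21.8 to 35.3), or 31.5% without the run of wide peaks, against 14.9% of the other peaks (12.9 to 17.1). On 3L it was 29 of 104 (27.9%, 19.5 to 37.5), against 15.9% (13.9 to 18.01). On 3R it was 6 of 66 (9.09%, 3.41 to 18.7), against 15.6% (13.8 to 17.4). Both 2L and 3L stood above the background share and 3R below it, with an interval that holds the share of the other 3R peaks. The upper quartile of the list was reached by 30.1% of all peaks on the 3 arms. It was reached by 72 peaks beside the centromere of 2L (39.8%, 32.6 to 47.3), against 21.8% of the other 2L peaks (19.5 to 24.3). On 3L the shares were 26.0% beside the centromere (17.9 to 35.5) and 28.0% elsewhere, and on 3R 36.4% (24.9 to 49.1) and 36.6%. The excess of strong peaks was thus seen on 2L. Without the run of wide peaks the 2L share was 30.8% (23.5 to 39.0), with an interval that overlaps that of the other 2L peaks.

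A score of at least 100 was reached by 41.2% of all peaks on the 3 arms and by 151 of the 351 peaks beside the centromeres (43.0%, 37.8 to 48.4). By arm it was reached by 43.6% on 2L (36.3 to 51.2), against 31.4% of its other peaks. On 3L the share was 36.5% (27.3 to 46.6), against 38.0%, and on 3R 51.5% (38.9 to 64.0), against 50.3%. Without the run of wide peaks the 2L share was 35.6% (27.9 to 44.0).

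Widths showed the same pattern. The median width was 966 bp beside the centromere of 2L (715 to 1357), against 988 bp in its other peaks, 1045 bp on 3L (794 to 1209), against 1006.5 bp, and 1230.5 bp on 3R (1069 to 1375), against 1167 bp. Narrow peaks of up to 500 bp made up 33.7% beside the centromere of 2L (26.9 to 41.1), against 17.5% elsewhere on the arm. On 3L they were 26 of 104 (17.0 to 34.4%), against 17.6%, and on 3R 10.6% (4.37 to 20.6), against 16.7%. Peaks wider than 2000 bp were 13.1% of all peaks on the 3 arms. They were 49 of 181 beside the centromere of 2L (27.1%, 20.7 to 34.2), against 10.4% of its other peaks, and 17.8% without the run of wide peaks (12.0 to 24.99). On 3L they were 15 of 104 (14.4%, 8.30 to 22.7), against 11.1%, and on 3R 10 of 66 (15.2%, 7.51 to 26.1), against 14.9%.

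Wider peaks had higher scores beside the centromeres and in the rest of the arms, less closely so beside the centromere of 3R. Spearman's rho of width and score, given as a description of peaks that share their libraries, was 0.883 over the 181 peaks of 2L, 0.812 over the 104 of 3L and 0.564 over the 66 of 3R, and 0.816, 0.826 and 0.792 over the other peaks of these arms. With the 3 arms pooled, the intervals of the median scores overlapped within each width class up to 2000 bp. Among peaks of up to 500 bp the median score was 14.6 beside the centromeres (12.4 to 16.6, n = 94), against 14.4 in the other peaks (13.6 to 15.2). Among peaks of 500 to 1000 bp it was 43.6 (29.5 to 63.6, n = 68), against 52.1 (50.1 to 54.4). Among peaks of 1000 to 2000 bp it was 124 (105 to 137, n = 115), against 117 (114 to 120.4). Among peaks over 2000 bp it was 223 (209.9 to 234, n = 74), against 177 (171 to 184), and 173 (144 to 231, n = 51) without the run of wide peaks of 2L. Single arms departed from the pooled values. Among peaks over 2000 bp the median on 2L was 231.7 (222.2 to 239.9, n = 49), against 178.3 (157.9 to 190.8). Without the run of wide peaks it was 219.4 (169.7 to 283.2, n = 26), and the intervals overlapped. On 3R the median of this class was lower, 125.2 (101.4 to 204.7, n = 10), against 172.4 (159.8 to 181.3). On 3L it was 173.1 (86.01 to 456.1, n = 15), against 184.8 (174.6 to 198.9). On both arms the intervals overlapped. Among peaks of 1000 to 2000 bp the median on 2L was 131 (109.49 to 174, n = 40), against 101 (96.2 to 108.81), with intervals that barely part. Without the run of wide peaks it was 129 (108.46 to 174, n = 38), and the intervals overlapped. Among peaks of 500 to 1000 bp the median on 3R was 77.2 (26.9 to 165, n = 14), against 51.1 (46.4 to 58.6). With the other peaks weighted to the width deciles of those beside the centromeres, the ratio of median scores was 0.981.

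**Figure D2:**
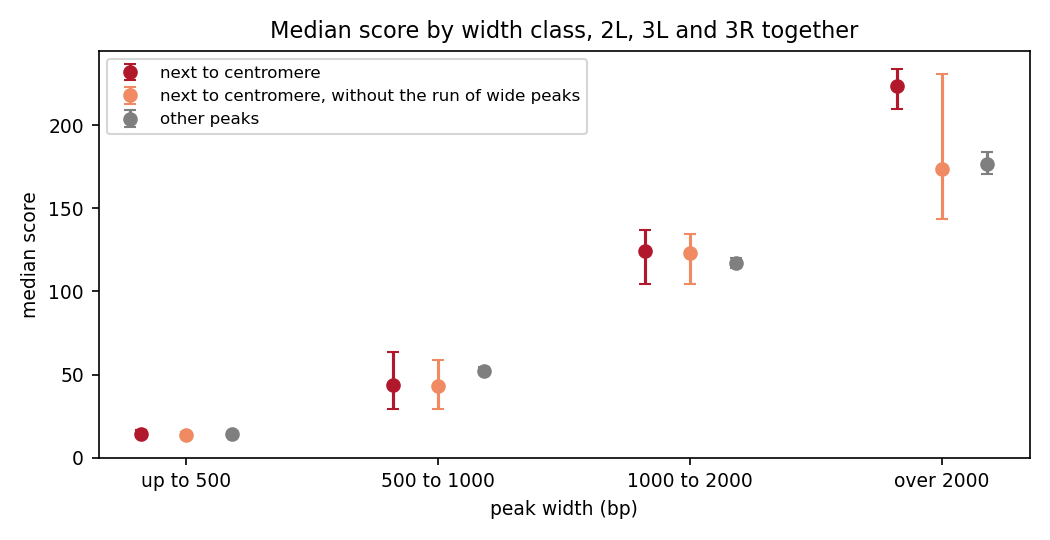
Median peak score (authors' scale) by width class on 2L, 3L and 3R together, for all peaks next to the centromere (red), those peaks without the run of wide peaks of 2L (orange) and the other peaks (grey). Bars are exact binomial 95% intervals of the median. The intervals overlap in the classes up to 2000 bp, and in the widest class the red median of 223 lies above the orange one of 173 and the grey one of 177.

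Wide peaks of low score made up a larger share on 3L, within overlapping intervals. Of the 15 wide peaks beside its centromere 5 had a score under 100 (33.3%, 11.8 to 61.6), against 15 of 140 wide peaks in the rest of 3L (10.7%, 6.12 to 17.1). The longest of the 5, 3L:23818154–23824169, was 6016 bp wide with a score of 94.99. On 2L the shares went the other way, 6.12% (1.28 to 16.9) beside the centromere and 12.3% elsewhere. On 3R they were 10% and 8.26%. With the 3 arms pooled they were 12.2% (5.71 to 21.8) and 9.92%.

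Density also differed in direction between the arms. There were 92.0 peaks per Mb beside the centromere of 2L (79.0 to 106), against 56.1 per Mb in the rest of the arm (52.9 to 59.4), and 79.3 per Mb without the run of wide peaks (67.0 to 93.3). On 3L there were 42.1 per Mb (34.4 to 50.96), against 58.1 (54.9 to 61.3), and on 3R 70.8 (54.8 to 90.1), against 60.6 (57.7 to 63.6). Peaks were thus denser than elsewhere on 2L, sparser on 3L, and on 3R the interval held the density of the rest of the arm. Peaks covered 14.7% of the bases beside the centromere of 2L, against 6.78% in the rest of the arm, and 9.76% without the run of wide peaks. On 3L they covered 5.92%, against 6.98%, and on 3R 9.48%, against 8.21%. The pooled density ratio of 1.12 rested on 2L, since it was 0.840 without that arm.

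The median gap between neighbouring peaks was shorter on 2L, and longer on 3L and 3R, than in the rest of each arm. The median gap was 796 bp beside the centromere of 2L, against 2052 bp in the rest of the arm, and 1603 bp without the run of wide peaks. On 3L the median gap was 4338 bp, against 2233 bp, and on 3R 3803 bp, against 2063 bp. On 3R the wider median gap went with fewer close neighbours, with 12 of 65 gaps under 500 bp (18.5%, 9.92 to 30.0), against 32.7% in its other peaks (30.4 to 35.1). On 2L 43.3% of the gaps were that short (36.0 to 50.9), against 30.3%, and 32.6% without the run of wide peaks. On 3L, despite the longer median gap, 33.0% were that short (24.1 to 43.0), against 28.9%. The longest stretch with no peak beside the centromere was 156 kb on 3L, at 3L:22098938–22254744. On 3R it was 97.1 kb, at 3R:368806–465919, and on 2L 94.7 kb, at 2L:21833093–21927828. Longer stretches lay in the rest of each arm, the longest of them 441 kb on 2L, 414 kb on 3L and 319 kb on 3R. Those maxima come from longer spans, 20.9, 21.8 and 26.9 Mb, against 1.97, 2.47 and 0.932 Mb beside the centromeres.

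Where the levels changed was followed in bins of 250 kb counted from the peak nearest the centromere. On 2L and 3L most bins within 1.25 Mb of that peak had low median scores, with strong peaks among the weak ones, and bins of higher median score and width came next. On 2L the median score was 67.3 in the first bin (13 peaks), 15.1 at 0.25 to 0.5 Mb (19 peaks), 22.4 at 0.5 to 0.75 Mb (29 peaks), 43.5 at 0.75 to 1 Mb (27 peaks) and 32.5 at 1 to 1.25 Mb (11 peaks). In bins of 100 kb this stretch of 2L was not evenly low, with medians of 151 at 0.9 to 1 Mb and 163 at 1 to 1.1 Mb, from only 2 and 4 peaks. In the bins of 250 kb the median was 213 in each of the next 2, which share the run of 35 peaks. Without the run it was 167 at 1.25 to 1.5 Mb (15 peaks) and 99.4 at 1.5 to 1.75 Mb (9 peaks). It was 70.05 at 1.75 to 2 Mb, and just outside the limit, at 2 to 2.25 Mb, it was 23.6 (15 peaks), the fourth lowest of the arm. The bin with 15.1 was the lowest of the 77 bins of 2L with at least 5 peaks, and the bin with 22.4 was the third lowest. The 2 bins with 213 were the highest with the run included. In the bins of the rest of 2L the 10th and 90th percentiles of the medians were 36.0 and 114, and the lowest median was 19.1, so low bins were found away from the centromere too.

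On 3L the bin medians were 41.5 (13 peaks), 65.1 (8 peaks), 12.2 (10 peaks), 21.3 (6 peaks) and 15.4 (14 peaks) over the first 1.25 Mb. They were 78.4, 101 and 157 in the next 3 bins, and 98.1 at 2.25 to 2.5 Mb, the bin before that holding only 3 peaks. Among the 84 bins of 3L with at least 5 peaks the value of 12.2 was the lowest, 15.4 the third lowest and 21.3 the fourth lowest. The value of 157 was the fourth highest. In the rest of 3L the lowest bin median was 14.3, so a single bin as weak as these was found elsewhere too.

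On 3R no such stretch was found. The bin medians were 135 (33 peaks), 74.2 (13 peaks), 80.3 (13 peaks) and 109 (7 peaks) over the first 1 Mb. They were 98.1, 115 and 114 in the next 3 bins, which lie outside the limit, within the range of those inside. The first bin held the fourth highest number of peaks among the 111 bins of 3R. The lowest values near this end came later, with 29.9 at 1.75 to 2 Mb and 30.8 at 2.25 to 2.5 Mb.

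**Figure D3:**
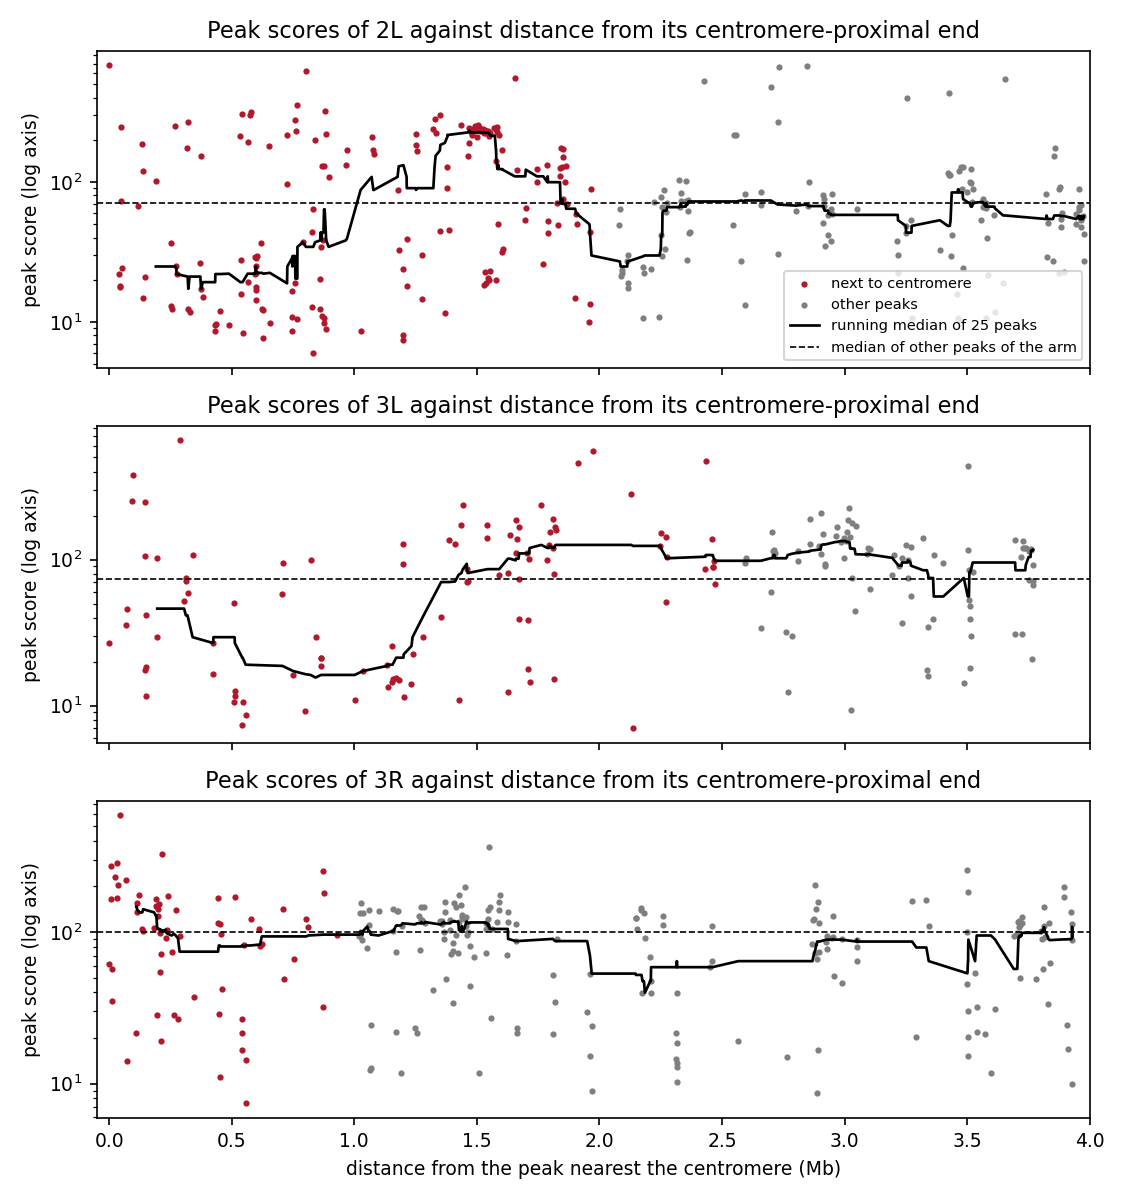
Score of each peak (log axis, authors' scale) against its distance in Mb from the peak nearest the centromere on 2L, 3L and 3R, with peaks next to the centromere in red and other peaks in grey. The line is the running median of 25 peaks and the dashed line the median of the other peaks of the arm (70.05, 74.2 and 101). The line runs below the dashed one over the first part of 2L and 3L and then rises above it. On 2L it falls below again from about 1.85 to 2.33 Mb, down to 24.8, and on 3R it starts above the dashed line.

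Widths were low in some of the same bins. On 2L the bins at 0.25 to 0.75 Mb had median widths of 424 and 403 bp, ranks 4 and 3 from the narrowest of its 77 bins. The bins at 0.75 to 1.25 Mb had 1108 and 715 bp, of which the first lies above the 988 bp of the other peaks of 2L, and the 2 bins at 1.25 to 1.75 Mb had 1835 and 2060 bp, the widest. On 3L the bins at 0.5 to 1.25 Mb had 490, 366.5 and 561.5 bp, and the next bin 1529 bp. The 4 bins of 2L from 0.25 to 1.25 Mb held 19, 29, 27 and 11 peaks, against a median of 12 over the bins outside the set. On 3L it was lower, with 6 to 14 peaks in each of the first 5 bins and a median of 14 over the bins outside the set.

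**Figure D4:**
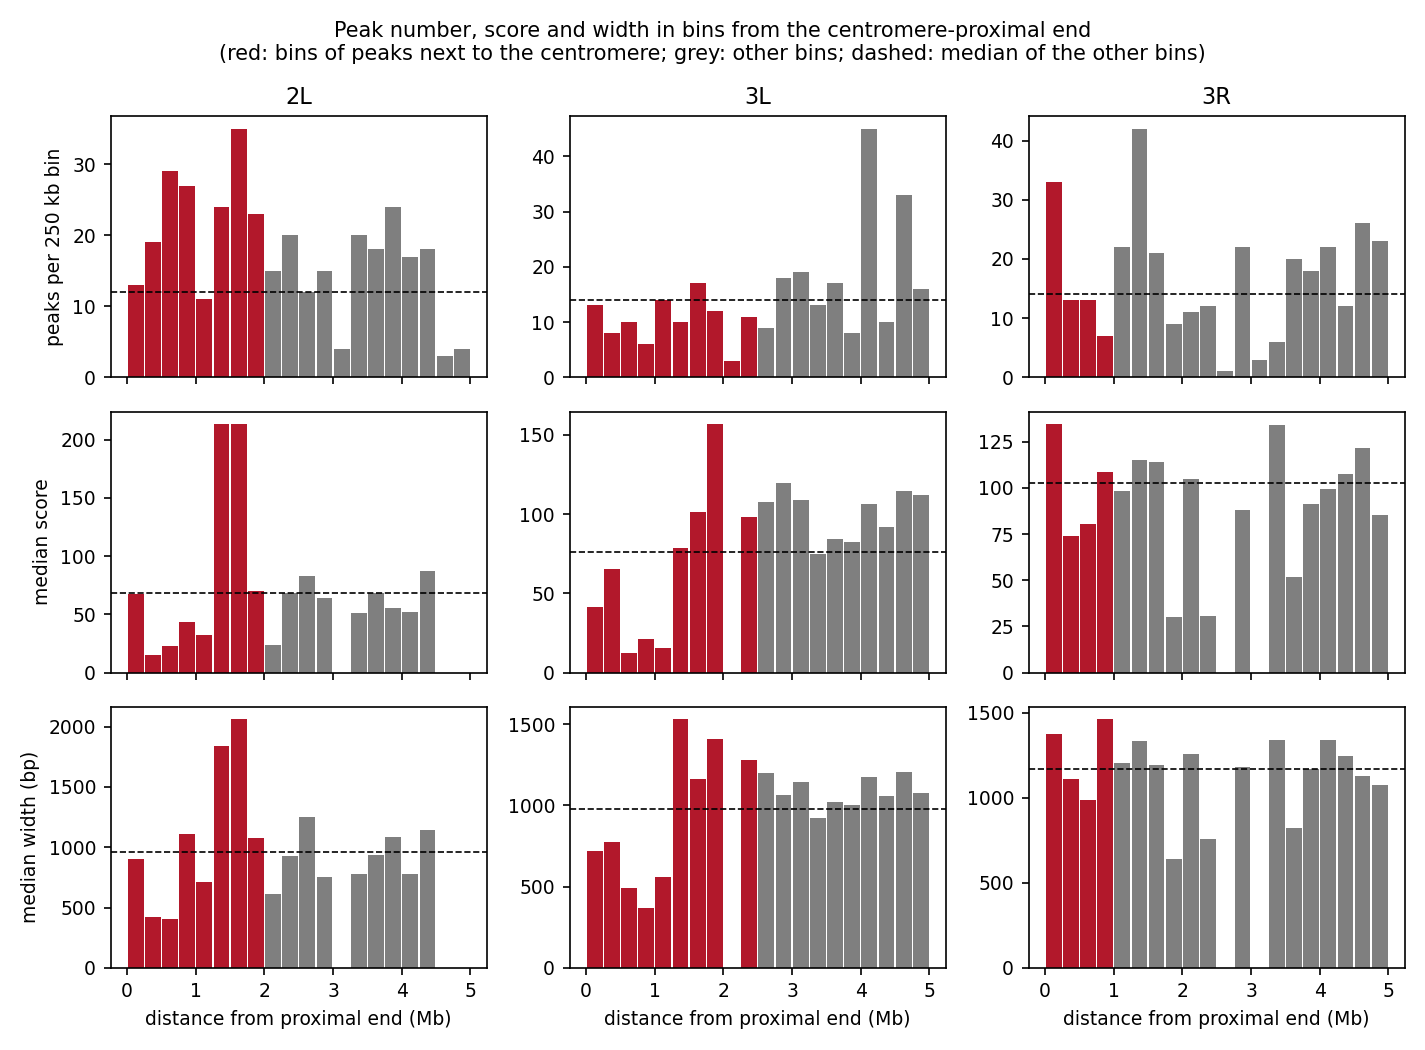
Number of peaks, median score (authors' scale) and median width (bp) in bins of 250 kb from the centromere-proximal end of 2L, 3L and 3R, with bins of the peaks next to the centromere in red, other bins in grey and the median of the other bins dashed. Medians are drawn for bins of at least 5 peaks. The bins of 2L at 0.25 to 1.25 Mb (median scores 15.1 to 43.5) hold 11 to 29 peaks. Those of 3L at 0.5 to 1.25 Mb (12.2 to 21.3) hold 6 to 14.

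A running median of 25 peaks, followed outwards from the centromere, first reached the level of the rest of the arm in the window that starts at 0.867 Mb on 2L for score and at 0.762 Mb for width. On 3L these windows started at 1.16 Mb for score and at 1.13 Mb for width. On 3R the first window already stood at that level for both. These distances depend on the window and level: with 15 peaks and 90% of the level, the first window on 2L already reached it for width (0 Mb), and on 3L it was reached at 0.0745 Mb for score.

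Within 1.25 Mb of the last peak of 2L the 99 peaks had a median score of 24.9 (19.2 to 37.1), a width of 642 bp at the median (424 to 791), and 41.4% were weak as defined above (31.6 to 51.8). The limit of 1.25 Mb was chosen after seeing the profile, so these values describe the stretch. Strong peaks stood among the weak ones. A score of 100 was reached by 31 of the 99 (31.3%, 22.4 to 41.4), a share close to the 31.4% of the other 2L peaks, and these 31 had medians of 211 for score and 2036 bp for width. The other 68 had medians of 17.4 and 349 bp, and the 37 of them that directly neighbour a strong peak had a median score of 14.7. On 3L 51 peaks lay in that distance, with a median score of 22.5 (17.3 to 41.5) and 45.1% of them weak (31.1 to 59.7). There 9 reached a score of 100 (17.6%, 8.40 to 30.9), against 38.0% of the other 3L peaks, with a median of 128, and the other 42 had a median of 18.5. Unlike on 2L, the 11 of these 42 that directly neighbour a strong peak had a higher median score, 29.4. The members beyond 1.25 Mb had a median score of 131 on 2L (82 peaks), 90.2 on 2L without the run of wide peaks (47 peaks) and 110.2 on 3L (53 peaks).

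The opposite, telomere-side ends were binned in the same way. In the 2 Mb from that end the median score was 75.1 on 2L (60.9 to 96.1, n = 134), 132 on 3L (119 to 149.6, n = 138) and 109 on 3R (73.6 to 136, n = 98). Of the bins of 250 kb in these stretches with at least 5 peaks, the lowest median was 55.9 on 2L, 56.3 on 3L and 44.4 on 3R.

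The highest scores beside the centromeres were 681 on 2L, 656 on 3L and 589 on 3R. They were 785, 846 and 696 in the rest of these arms, which holds many more peaks. The last peak of 2L, 2L:23004577–23009638, held the 681 and was 5062 bp wide. It was followed on 2L by 2L:22201417–22206571 (score 615, 5155 bp) and by 2L:21347625–21355107 (score 553, 7483 bp), which was also the widest of the set. On 3L the highest score was 656 at 3L:24235603–24240792 (5190 bp), 0.291 Mb from the last peak. It lies in the first 0.5 Mb, where the median score was 52.1 (21 peaks), nearer the centromere than the weakest bins of 3L. The next were 3L:22548957–22556428 (score 555, 7472 bp) and 3L:22092864–22097971 (score 471, 5108 bp). The second widest peak of 3L was 3L:22610263–22617709 (7447 bp, score 456). On 3R the highest was 589 at 3R:66999–68887, a peak of 1889 bp, followed by 325 at 3R:237543–238466 (924 bp) and 284 at 3R:56577–58112 (1536 bp). These 3 lie in the first 0.25 Mb. The widest of 3R was 3R:828230–833717 (5488 bp), with a score of 122. The last peak of 3L, 3L:24530516–24531600, had a score of 26.9, and the first of 3R, 3R:23006–24048, one of 62.0.

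At the edges of the set, the peak just inside the limit of 2L was 2L:21041356–21041951 with a score of 88.6 and a width of 596 bp, and the one just outside was 2L:20927061–20927780 with 49.0 and 720 bp. On 3L the scores just inside and just outside were 68.3 (1093 bp) and 94.8 (1200 bp), and on 3R 96.2 (1162 bp) and 94.8 (1122 bp).

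A run of wide peaks lay beside the centromere of 2L. Joining neighbours less than 10 kb apart, the run that held the most bases in peaks on the 3 arms was 2L:21416354–21543766, with 35 peaks over 127 kb. Peaks covered 85.4% of it, or 109 kb. The next run by this measure, at 2L:10356838–10440338, had 35.3 kb in peaks and 42.3% covered. The run held 19.3% of the peaks beside the centromere of 2L and 37.7% of their bases. This rule was set after seeing the peaks, so the run is a description.

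The widest peaks of the run were alike in score, and most followed each other at similar distances. Peaks of at least 3900 bp numbered 21, with a median width of 4698 bp, and their scores lay between 209.9 and 254, with a median of 233 and an SD of 11.8 over peaks. The 145 other peaks of at least 3900 bp on the 3 arms had a median score of 237, but ran from 71.6 to 703 with an SD of 185. Of the 20 distances from the start of one such wide peak to the next, 16 were under 6000 bp. These 16 had a median of 5038 bp and quartiles of 4928 and 5068 bp. The limits of 3900 and 6000 bp were set after seeing the run and bound these distances from below and above. The longest distance left out was 14162 bp. Between the wide peaks lay 8 narrow ones of 213 to 348 bp, with scores of 18.3 to 49.9. Of the 34 gaps in the run 31 were under 500 bp, and the longest was 9372 bp, at 2L:21440877–21450248.

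**Figure D5:**
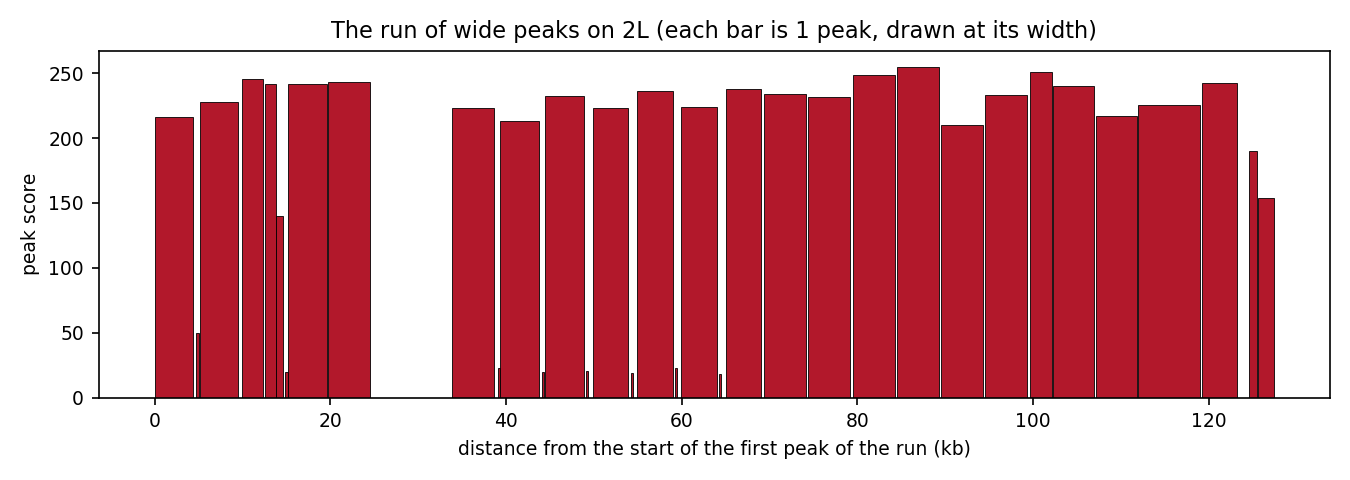
The 35 peaks of the run on 2L, each drawn at its width, by distance in kb from the start of the first one, with score (authors' scale) as height. The 21 peaks of at least 3900 bp have scores of 209.9 to 254 and mostly follow each other at about 5038 bp, with narrow peaks of low score between some of them and 1 gap of 9372 bp.

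Gene order was read from a RefSeq table of release 6, whose positions were not compared with those of the list. In it 119 histone genes and pseudogenes of 2L stand in 1 row, with 23 His1, 20 His2A, 23 His2B, 23 His3, 22 His4 and 8 pseudogenes, and 20 small RNA genes (sncRNA:430) among them. His1 is the linker histone and the others are the core histones of the nucleosome. After that row follow 103 of the 3506 genes that the table gives for 2L. The run of peaks was not tied to these genes, since the annotation of release 5 was not used here. How reads that match several copies of a repeat were placed is not given in the sources used here, and its part in the run and in the weak stretches was not tested.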

How the data were processed

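One list of peaks was analysed, called with MACS on FlyBase release 5, per the file headers. Tools named in the submitters' processing notes are BWA, MACS2 and CASAVA in versions 1.7.0.2 and 1.7.0.3, beside the build BDGP5, with no order. Threshold, input and pooling were not given in the sources used here. Each peak has a start, an end and 1 score that the authors deposited without naming its kind. One start was 0, so starts were read as counted from 0 and printed from 1, with width taken as end minus that start.

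Libraries were grouped by their titles. For densities the length was that from the first to the last peak of a set on each arm. Intervals are at 95% and cover counting error only: exact binomial order statistics for medians, Clopper-Pearson for shares, exact Poisson for densities. The narrowest peaks are 200 bp wide and the smallest gap on the 3 arms is 51 bp. No test was run, since peaks are not replicates. Members, levels and bins were chosen with earlier results of these data known. Regions named are, on each arm, the 3 highest by score, the 3 widest (printed where they lead), the one nearest the centromere, the longest stretch without a peak and those at the limits. The run of wide peaks on 2L, its sizes and the limit of 1.25 Mb were chosen after seeing the data. No genome of release 5 was used, so no sequence or gene is given for a peak. The functions were tested on simulated data. Python 3.11.15 was used, with matplotlib 3.10.9, scipy 1.17.1, numpy 2.4.6 and pandas 2.3.3. Alternatives were merging of close peaks, filters on score, other limits, single arms left out, weighting by width, score or arm, the opposite ends as the comparison, other bins and other windows.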

Additional observations from a re-analysis of the deposited data

How the results depend on the processing

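The values here set the peaks beside the centromeres over, or minus, the other peaks of the 3 arms. Weighting to the arm mix and leaving out the run of wide peaks of 2L were chosen after seeing the data. The pooled density ratio of 1.12 turned to 0.840 without 2L, and was 1.45 without 3L and 1.32 in bases in peaks. The excess of wide peaks, 8.68 percentage points, was 1.50 without 2L, 3.74 without the run of wide peaks, 0.0015 against the opposite 2 Mb, 4.48 with peaks under 500 bp apart merged and 17.5 in the upper part of the list by score. The excess of gaps under 500 bp, 4.81 points, was -3.65 without 2L and -1.01 without the run. The excess of scores of at least 100, 2.01 points, was -9.14 against the opposite 2 Mb and 12.2 in the upper part of the list. In that part, which selects on the score itself, the ratio of median scores was 1.26 in place of 0.966 and that of widths 1.29 in place of 1.03, and merging gave a width ratio of 1.16. With a running median of 51 peaks the level of 3L was reached at 0.865 Mb for score and 0.707 Mb for width. In bins of 100 kb the lowest median score was 9.48 on 2L and 24.3 on 3R, against 15.1 and 74.2 in bins of 250 kb. The cause of these shifts was not tested. Alternatives that leave peaks out show only which peaks a value rests on. The other 84 of 103 alternatives stayed within the interval of the reported value, or within 1 bin for distances. That interval is wide, so the reading can still change. Against the opposite 2 Mb the ratio of median scores was 0.728 (0.542 to 0.901), an interval that counts only the error beside the centromeres. The intervals of the 2 medians, 58.7 to 97.4 and 91.6 to 122, overlap. The 2 sets also differ in their mix of arms. By arm the medians were 64.8 against 75.1 on 2L, 71.2 against 132 on 3L and 102 against 109 on 3R. The excess of gaps under 500 bp was then 6.75 points (1.72 to 12.0), with the error counted in the same way. The intervals of the 2 shares, 30.6 to 40.9% and 24.3 to 33.8%, overlap. Merging leaves no gap under 500 bp by construction, so it was not run for gaps. No paired analysis was possible because values per library are lacking, and for that reason no replicate was left out. Unknown depth limits weak peaks, since those under the authors' threshold are not listed.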
